A study of Mus musculus with 18 samples.

Results

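The genes described here act when a cell divides. They are 35 mitotic and G2/M genes of the mouse colon, taken as a named list (*Mki67*, *Top2a*, *Birc5* and 32 others that act in mitotic entry, chromosome segregation or cytokinesis). The rule itself uses no measured value, but the list was chosen with earlier results of these data known. The list holds no DNA replication genes. All 35 were found among the 47729 genes of the count table, and all 35 were among the 16937 genes with enough reads to be tested.

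RNA-Seq was performed on colon tissue of WT mice and of mice lacking *Cldn2* (*Cldn2*KO), the gene of claudin-2, a tight junction protein that forms pores for cations. Mice of either genotype were untreated (control), had recovered from colitis induced with dextran sulfate sodium (DSS), which damages the epithelial lining, or had been given azoxymethane (AOM), a carcinogen, before cycles of DSS, a model of colitis-associated cancer. The AOM/DSS groups were given 1 dose of 10 mg/kg AOM and 3 cycles of 2.5% DSS. Each of the 6 groups held 3 libraries, 18 in all. All lines were on a C57BL/6 background with WT littermates, the sources used here name no promoter or Cre that would limit the deletion to one cell type, and the labels give neither age nor sex. Because whole tissue was sequenced, fewer dividing cells and less mitotic RNA per cell cannot be told apart.

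Most transcripts of this kind rise and fall with the cell cycle. In resting cells the DREAM complex holds their promoters silent through cell cycle genes homology region (CHR) elements, and in G2 phase MYBL2 (B-MYB) and FOXM1 act at the same promoters, often beside CCAAT boxes bound by NF-Y. Cyclin B and CDK1 then drive entry into mitosis, kinetochores and the spindle separate the chromosomes, and the anaphase-promoting complex ends the process by destroying cyclins. In the colon, dividing cells lie in the lower crypt, where stem cells and transit-amplifying cells renew the epithelium and close wounds after injury.

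These promoter elements were searched for in the RefSeq promoter windows (GRCm38.p6), which run from 250 bases before to 50 bases after a start site. Windows were given for 30 of the 35 genes, with 31 windows in all since *Prc1* has a pair of them. *Foxm1*, *Ccna2*, *Aurkb*, *Tpx2* and *Kif20a* had none in the table. The windows of 6 genes are printed. They were taken from genes followed library by library in what comes after, and only from those whose windows hold both elements. The levels of 5 of these genes moved together, and *Plk1* departed from them. The printed windows thus hold both elements by choice and do not show how common these are. Each is printed 5′ to 3′ on the strand of the gene, from 250 bases before the start site to 30 bases after it (280 bases), and capitals mark each CHR element and CCAAT box on either strand. The windows lie at chr7:135716350-135716629, minus strand for *Mki67*, chr11:99024160-99024439, minus strand for *Top2a*, chr13:100786457-100786736, minus strand for *Ccnb1*, chr10:69352883-69353162, minus strand for *Cdk1*, chr19:37376132-37376411, plus strand for *Kif11* and chr7:122159185-122159464, plus strand for *Plk1*.

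Mki67: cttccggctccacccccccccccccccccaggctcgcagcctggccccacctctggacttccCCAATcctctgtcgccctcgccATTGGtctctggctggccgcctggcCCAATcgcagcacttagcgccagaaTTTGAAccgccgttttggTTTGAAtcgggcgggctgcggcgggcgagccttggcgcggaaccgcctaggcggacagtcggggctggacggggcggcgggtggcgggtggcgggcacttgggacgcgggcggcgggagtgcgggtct
Top2a: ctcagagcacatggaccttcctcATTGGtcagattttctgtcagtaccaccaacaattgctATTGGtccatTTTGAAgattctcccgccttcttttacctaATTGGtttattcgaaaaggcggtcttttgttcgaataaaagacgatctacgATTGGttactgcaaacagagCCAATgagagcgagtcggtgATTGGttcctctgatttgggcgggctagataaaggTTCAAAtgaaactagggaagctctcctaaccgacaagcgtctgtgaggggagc
Ccnb1: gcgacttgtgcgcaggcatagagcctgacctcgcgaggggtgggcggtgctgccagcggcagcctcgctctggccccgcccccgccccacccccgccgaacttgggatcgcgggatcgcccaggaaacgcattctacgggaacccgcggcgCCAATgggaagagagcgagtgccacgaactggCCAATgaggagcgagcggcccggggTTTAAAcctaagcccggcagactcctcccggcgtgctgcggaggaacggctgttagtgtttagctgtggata
Cdk1: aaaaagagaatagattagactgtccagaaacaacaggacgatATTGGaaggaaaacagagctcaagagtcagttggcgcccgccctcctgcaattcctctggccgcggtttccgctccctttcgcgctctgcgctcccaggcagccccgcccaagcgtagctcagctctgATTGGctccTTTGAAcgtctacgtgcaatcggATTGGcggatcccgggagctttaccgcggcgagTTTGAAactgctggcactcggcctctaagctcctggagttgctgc
Kif11: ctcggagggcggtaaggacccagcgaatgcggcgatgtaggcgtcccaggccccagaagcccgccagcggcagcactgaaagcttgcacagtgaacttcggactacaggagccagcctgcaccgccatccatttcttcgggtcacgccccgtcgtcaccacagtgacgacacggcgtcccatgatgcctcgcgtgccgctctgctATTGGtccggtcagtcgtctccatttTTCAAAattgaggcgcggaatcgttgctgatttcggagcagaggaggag
Plk1: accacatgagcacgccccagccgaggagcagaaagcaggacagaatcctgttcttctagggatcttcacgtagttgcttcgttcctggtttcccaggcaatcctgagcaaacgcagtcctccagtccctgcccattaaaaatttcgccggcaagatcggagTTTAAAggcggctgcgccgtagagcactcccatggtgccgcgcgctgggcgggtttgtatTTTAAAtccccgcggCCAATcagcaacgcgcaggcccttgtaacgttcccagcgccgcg

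The CHR element was searched as TTTGAA or TTTAAA and the CCAAT box as CCAAT, on both strands, and TTTAAA reads the same on either. A CHR element was present in 28 of the 31 windows (90.3%), against 27.6% of all 32851 windows and 20.2% of the 15577 windows of genes tested here. A CCAAT box was present in 24 (77.4%), against 37.4% of all windows. Both were present in 23 (74.2%), against 10.7% of all. A CHR element began within 50 bases of the start site in 25 windows (80.6%), against 8.28% of all windows. In *Ccnb1* the single CHR element began 42 bases before the start site and followed a pair of CCAAT boxes, and in *Kif11* it began 19 bases before the start and followed 1 CCAAT box. *Plk1* carried 3 CHR matches, the third of them beyond the printed stretch, and 1 CCAAT box, so it held both motifs as most of the others did. *Mybl2* and *Nuf2* had neither motif, and *Bub1* had CCAAT boxes with no CHR match. A CHR and a CCAAT match shared bases in 1 window, that of *Cdca8*. These matches describe letters in a window and say nothing of what binds there.

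**Figure D1:**
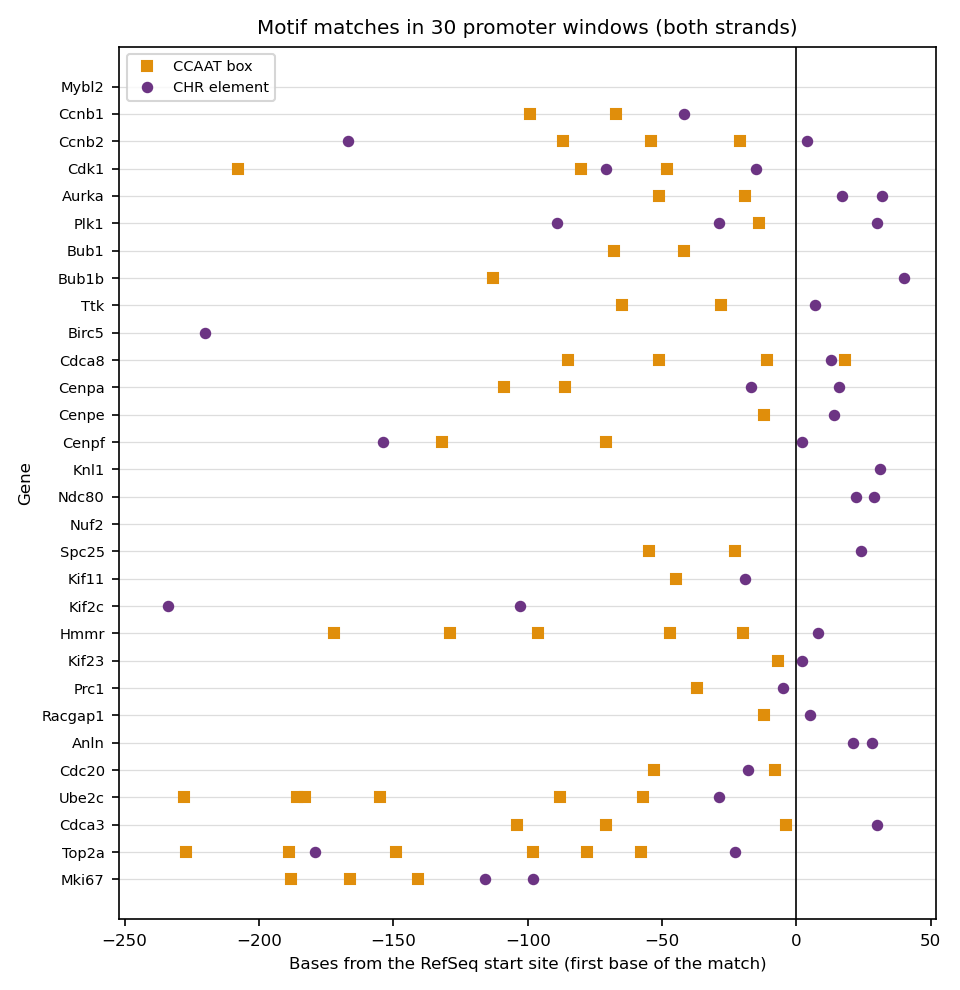
Positions of CHR elements (circles) and CCAAT boxes (squares) in the RefSeq promoter windows of 30 mitotic genes. The x axis gives bases from the start site to the first base of each match, and each row is 1 gene (for *Prc1* the first of its windows). CHR elements cluster around the start site with a median position of -1 over 40 matches in the 31 windows, and CCAAT boxes lie upstream with a median of -68 over 57 matches.

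Each library held 17.6 to 27.4 M counted reads (median 19.6), and the mitotic genes were covered by at least 33 reads in every library (the fewest were for *Mybl2*). Levels are given as CPM, which scales reads to a common library size, with TMM factors. *Cldn2* stood between 44.5 and 504 CPM in the WT libraries and between 0.0555 and 0.557 CPM in those of *Cldn2*KO mice, as the genotype labels require. The colon label held for the epithelium markers, whose summed level was at least 9832 CPM in every library. The study describes the recovery RNA as coming from distal colon and its mice as age- and sex-matched. The 6 recovery libraries and WT control replicate 2 stood apart. Markers of the distal colon (*Hoxb13*, *Hoxd13*, *Hoxd12* and *Hoxa13*) summed to between 0.107 and 1.83 CPM in these 7 libraries and to between 470 and 851 CPM in the 11 others, so the recovery values go against that description. The region of colon and the treatment therefore cannot be told apart when recovery is compared with control or AOM/DSS, and comparisons of the 35 genes with WT control are also given without replicate 2 of that group. *Xist* reached 865 CPM or more in replicates 2 and 3 of WT recovery, *Cldn2*KO recovery and *Cldn2*KO AOM/DSS, and was at most 1.16 CPM elsewhere, so these groups mixed libraries with and without it. All control and WT AOM/DSS libraries were without it. Recovery against control, and *Cldn2*KO against WT after AOM/DSS, were therefore not balanced for *Xist*.

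The mitotic genes differed widely in abundance. Per kilobase of transcript and averaged over the 18 libraries of all groups, the B-type cyclin *Ccnb2* was the highest at 24.4 CPM per kb, followed by the proliferation marker *Mki67* at 21.3, the mitotic entry factor *Cdca3* at 18.8, the ubiquitin-conjugating enzyme *Ube2c* at 17.7 and the DNA topoisomerase *Top2a* at 16.7 CPM per kb. *Ccna2* and *Plk1* both stood at 16.1 and *Cdk1* at 14.4 CPM per kb. The transcription factors *Foxm1* at 2.02 and *Mybl2* at 1.09 CPM per kb were the lowest. The order was not the same in each group: *Mki67* (18.1) was above *Ccnb2* (16.3 CPM per kb) in *Cldn2*KO control, and *Plk1* (17.7) was above *Ccnb2* (12.3) and *Mki67* (9.22 CPM per kb) in *Cldn2*KO recovery. Averaged over the 18 libraries, centromere and kinetochore genes lay between 2.23 (*Nuf2*) and 6.64 CPM per kb (*Spc25*).

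In some groups the genes ranked the libraries alike. WT control replicate 1 was the highest of its group for 35 of 35 genes and replicate 2 the lowest for 35 of 35, while over all genes tested the shares were 31.4% and 43%. *Cldn2*KO recovery replicate 3 was highest for 35 of 35, WT recovery replicate 1 highest for 33, and replicate 2 of WT AOM/DSS and of *Cldn2*KO AOM/DSS lowest for 33 and 34. *Cldn2*KO controls were less uniform, with 19, 3 and 13 genes highest in replicates 1 to 3. The median gene differed 2.68-fold between the highest and lowest WT control, 1.3-fold among *Cldn2*KO controls, 1.67-fold among WT recovery libraries, 1.54-fold among WT AOM/DSS and 1.55-fold among *Cldn2*KO AOM/DSS libraries. Among *Cldn2*KO recovery libraries it differed 5.19-fold. Since they share these libraries, the 35 genes are not 35 separate observations of a condition.

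**Figure D2:**
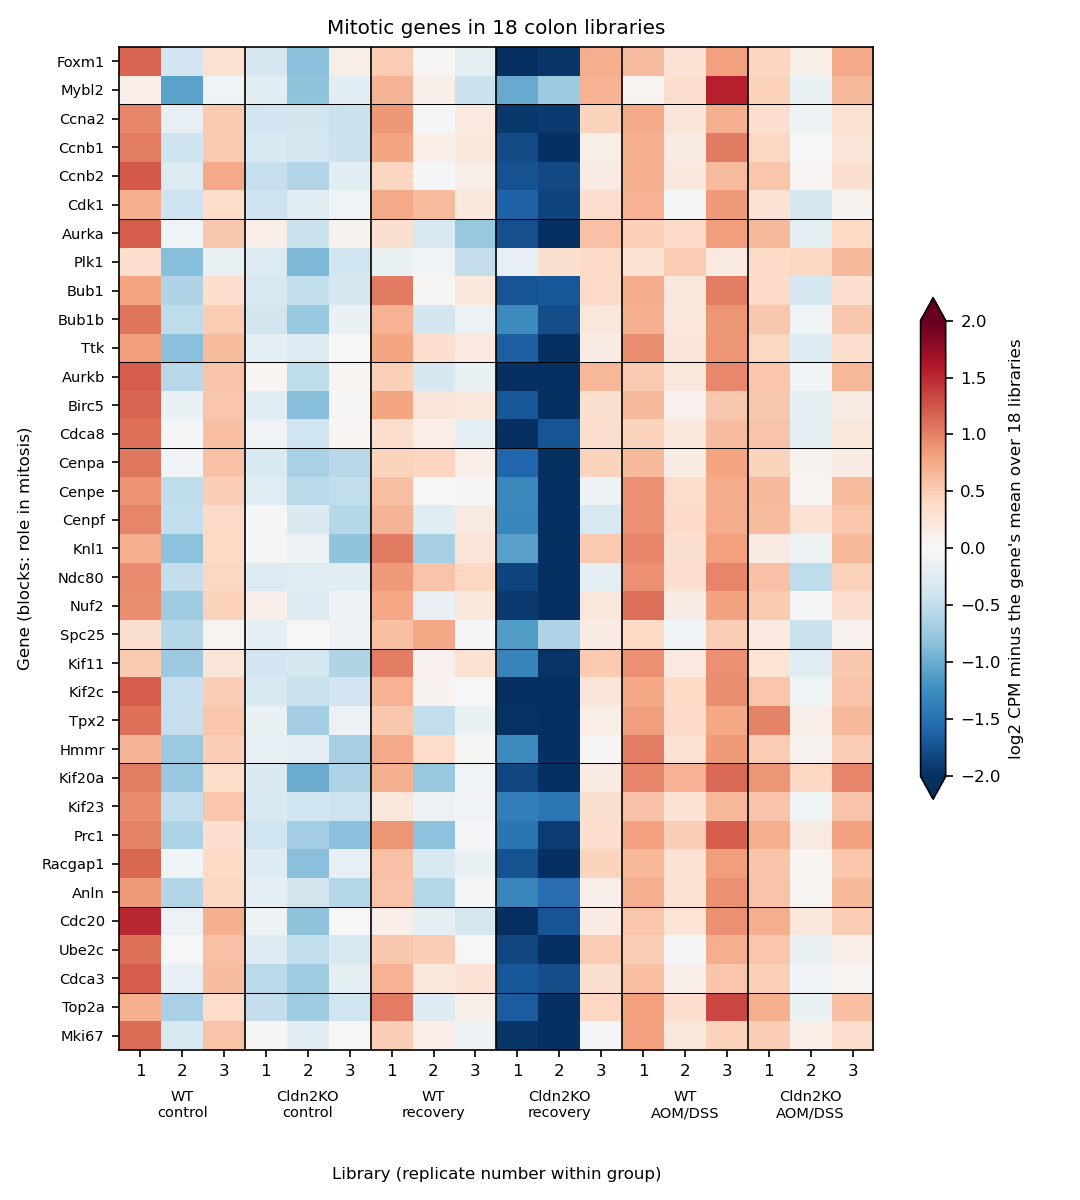
Heatmap of the 35 mitotic genes (rows, in blocks by role) in 18 colon libraries (columns, by group and replicate). Color gives log2 CPM minus the mean of that gene over the 18 libraries. Replicates 1 and 2 of *Cldn2*KO recovery hold the lowest values in nearly every row. *Plk1* is an exception with 30.2 and 42.1 CPM there, and *Mybl2* is as low in WT control replicate 2 (2.16 CPM).

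The first comparison asked whether genotype made a difference to the mitotic genes during recovery. The *Cldn2*KO recovery libraries were not alike. In replicates 1 and 2, 34 of 35 genes lay below the whole range of the WT recovery libraries, at a median of 24.6% and 21.5% of the WT recovery mean. In replicate 3 it was 103%, with 21 genes inside the WT range, 8 above it and 6 below it. With all 3 libraries in the group, 34 of 35 genes had a lower fitted mean in *Cldn2*KO (median log2 fold change -0.99, against 0.00 over all genes tested) and none passed the test at an adjusted p under 0.05.

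*Mki67*, whose protein coats mitotic chromosomes and is the usual marker of dividing cells, stood at 269, 209 and 178 CPM in WT recovery against 49.3, 41.3 and 188 CPM in *Cldn2*KO recovery. *Top2a*, which untangles sister chromatids, stood at 260, 107 and 139 CPM in WT and at 40.2, 28.4 and 171 CPM in *Cldn2*KO. In both genes the first pair of *Cldn2*KO libraries was below every WT library and the third lay within the WT range, so the groups overlapped. The log2 fold changes were -1.24 (SE 0.461, edgeR adjusted p 0.152) for *Mki67* and -1.08 (SE 0.561, edgeR adjusted p 0.303) for *Top2a*.

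Of the regulators, *Foxm1* stood at 14.3, 10.2 and 8.75 CPM in WT and at 2.2, 2.6 and 16.6 CPM in *Cldn2*KO, with the third *Cldn2*KO library above all WT libraries. *Mybl2*, the rarest of the 35, stood at 7.28, 4.88 and 3.37 CPM in WT and at 2.25, 2.74 and 7.38 CPM in *Cldn2*KO. Among the cyclins and their kinase, *Ccnb1* stood at 52.7, 33.5 and 35.3 CPM in WT and at 8.78, 6.91 and 32.9 CPM in *Cldn2*KO, so that all *Cldn2*KO libraries were below all WT libraries. *Cdk1*, the kinase that starts mitosis, stood at 75.1, 69 and 51.8 CPM in WT and at 14.6, 12.5 and 57 CPM in *Cldn2*KO. The log2 fold changes of these 4 genes were -0.64, -0.33, -1.32 and -1.22, and the other cyclins *Ccna2* and *Ccnb2* had -1.05 and -0.99.

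*Birc5* (survivin), *Aurkb* and *Cdca8* encode parts of the chromosomal passenger complex, which corrects faulty attachments of chromosomes to the spindle. *Birc5* stood at 55.8, 38.4 and 37.1 CPM in WT and at 9.96, 7.24 and 40 CPM in *Cldn2*KO. *Aurkb* stood at 18.4, 10.4 and 12 CPM in WT and at 2.95, 2.92 and 20.9 CPM in *Cldn2*KO, where the ratio of replicate 3 to the mean of the other 2 was 7.11, the largest of the 35. For *Birc5* replicate 3 fell within the WT range and for *Aurkb* it exceeded it. The log2 fold changes were -1.20 (SE 0.505, edgeR adjusted p 0.2) for *Birc5*, -0.61 for *Aurkb* and -0.83 for *Cdca8*.

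All 7 centromere and kinetochore genes had lower fitted means in *Cldn2*KO recovery, with a median log2 fold change of -1.15. *Ndc80*, whose protein grips microtubules, stood at 19.3, 15.9 and 14.3 CPM in WT and at 3, 1.62 and 9.4 CPM in *Cldn2*KO. All 3 *Cldn2*KO libraries were below all WT libraries, and the log2 fold change of -1.82 (edgeR SE 0.5, adjusted p 0.071) was the closest of the 35 to the threshold. *Cenpa*, the histone that marks the centromere, stood at 43.8, 43.3 and 35.4 CPM in WT and at 10.7, 6.96 and 43.9 CPM in *Cldn2*KO, the third just above the WT range. The kinetochore motor *Cenpe* and the kinetochore protein *Cenpf* had log2 fold changes of -1.15 and -1.37, and the scaffold *Knl1* and the Ndc80 complex parts *Nuf2* and *Spc25* had -0.87, -1.22 and -0.92.

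The spindle motor *Kif11*, which pushes the spindle poles apart, stood at 94.3, 49.6 and 57.5 CPM in WT and at 18.5, 12 and 66.9 CPM in *Cldn2*KO. The other spindle genes, the depolymerase *Kif2c*, the spindle assembly factor *Tpx2* and the microtubule-binding *Hmmr*, had log2 fold changes of -1.16, -0.96 and -1.34. *Cdc20*, which activates the anaphase-promoting complex, stood at 22.8, 18.1 and 16.2 CPM in WT and at 3.96, 6.26 and 23.2 CPM in *Cldn2*KO, with the third library above the WT range. *Ube2c*, the enzyme that works with this complex, stood at 59, 57.6 and 41 CPM in WT and at 11.5, 9.51 and 57.8 CPM in *Cldn2*KO, with the third library within the WT range. The 5 genes of the central spindle and cytokinesis (*Kif20a*, *Kif23*, *Prc1*, *Racgap1* and *Anln*) had log2 fold changes between -0.94 and -0.60. The checkpoint kinases *Ttk*, *Bub1* and *Bub1b* had -1.37, -1.14 and -0.82, and the centrosome kinase *Aurka* had -0.38.

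No mitotic gene was called by edgeR in this comparison (0.974% of all genes tested were), and 15 had an unadjusted p under 0.05, against 19.9% of all genes. DESeq2 called 5 (*Ndc80*, *Cenpf*, *Spc25*, *Ccnb1* and *Hmmr*, against 9.69% of all genes) and limma-voom with weights for each sample, which gives libraries unlike the rest of their group less weight, called 28 (against 11.2% of all genes). In 6 genes (*Ccnb1*, *Ttk*, *Cenpe*, *Cenpf*, *Ndc80* and *Hmmr*) every *Cldn2*KO recovery library lay below every WT recovery library, which held for 11.7% of all genes.

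The third *Cldn2*KO recovery library was looked at after its values had been seen. It was the highest of its group in 35 of 35 genes and exceeded both other libraries more than 2-fold in 32 of them (not *Plk1*, *Cenpf* and *Spc25*), against 4.56% of all genes tested. The median ratio to the mean of the others was 4.24, from 1.22 (*Plk1*) to 7.11. Without this library, 29 of the 35 genes were called lower in *Cldn2*KO recovery by edgeR (median log2 fold change -2.14), against 2.61% of all genes. *Mki67* then had a log2 fold change of -2.27 (edgeR SE 0.341, adjusted p 0.00714), *Birc5* -2.35 (SE 0.387, edgeR adjusted p 0.00919) and *Ccna2* -2.31 (SE 0.325, edgeR adjusted p 0.00512). The 6 genes not called were *Plk1*, *Mybl2*, *Knl1*, *Bub1b*, *Prc1* and *Anln*. Leaving out *Cldn2*KO recovery replicate 1 or 2 instead gave 0 calls, 4 unadjusted p under 0.05 (against 21.1% and 12.7% of all genes) and medians of -0.68 and -0.65.

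**Figure D3:**
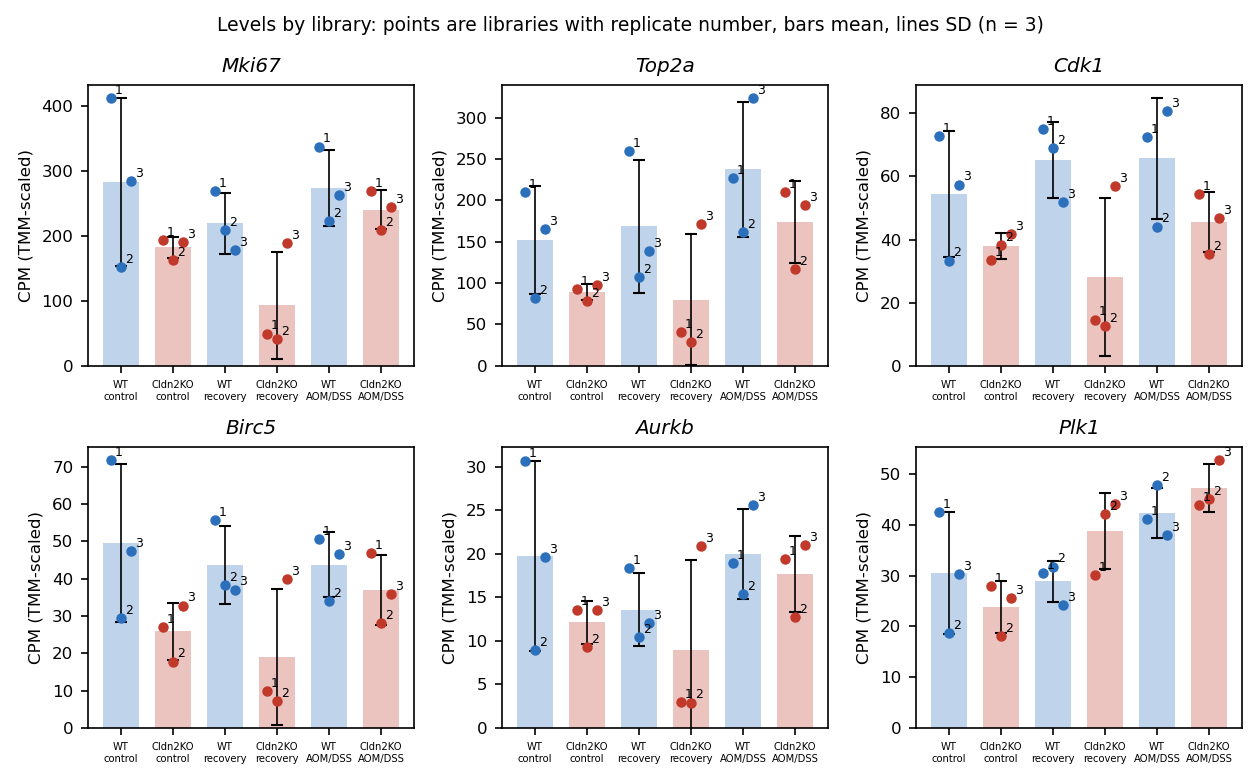
CPM (TMM-scaled, linear axis from 0) of *Mki67*, *Top2a*, *Cdk1*, *Birc5*, *Aurkb* and *Plk1* in the 6 groups. Points are libraries with their replicate numbers, bars are means and lines are the SD of 3 libraries. In 5 of the genes *Cldn2*KO recovery replicates 1 and 2 lie under all other libraries, while in *Plk1* all *Cldn2*KO recovery libraries lie between 30.2 and 44.2 CPM.

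Markers of the tissue's cells were read beside these values. The 10 epithelium markers summed to 9832, 14693 and 14890 CPM in *Cldn2*KO recovery replicates 1 to 3 and to 10114, 13967 and 10054 CPM in WT recovery. *Epcam* alone stood between 1815 and 2434 CPM in these 6 libraries, so epithelial RNA was abundant in all of them. Divided by the summed epithelium markers, the 35 mitotic genes stood at 39.2, 22.3 and 93.7 CPM per 1000 marker CPM in *Cldn2*KO recovery against 184, 85.8 and 119 in WT recovery. Markers of crypt base stem cells summed to 152, 149 and 322 CPM in *Cldn2*KO recovery against 248, 220 and 212 CPM in WT recovery, and 8 of the 10 were highest in *Cldn2*KO replicate 3. Being highest there was not particular to them, since it held for 8 of 10 smooth muscle, 7 of 10 epithelium, 7 of 10 differentiated colonocyte, 6 of 8 fibroblast and 6 of 9 B cell markers and for 34.7% of all genes tested, while 9 of 11 T and NK cell markers were lowest there. *Lgr5*, the receptor that defines these stem cells, stood at 2.46, 0.835 and 7.18 CPM in *Cldn2*KO and at 8.42, 11.8 and 4.08 CPM in WT. Markers of differentiated colonocytes summed to 8567, 9557 and 8776 CPM in *Cldn2*KO recovery. Germinal centre B cells, which also divide, had marker sums of 26.1 to 45.4 CPM in *Cldn2*KO recovery and 30.8 to 74.2 CPM in WT recovery. T and NK cell markers summed to 29.1 to 42.7 CPM in *Cldn2*KO recovery against 63.2 to 191 CPM in WT recovery, and 7 of 11 were lower without overlap. Macrophage markers summed to 51.6 to 59.3 CPM against 66.4 to 82.2 CPM, with 3 of 9 lower without overlap, and markers of enteric neurons and glia to 76.9 to 90.1 CPM against 52 to 68.1 CPM, with 3 of 9 higher. The part of these cell types in the result was not tested. *Xist* was low in replicate 1 and high in replicates 2 and 3 of *Cldn2*KO recovery.

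**Figure D4:**
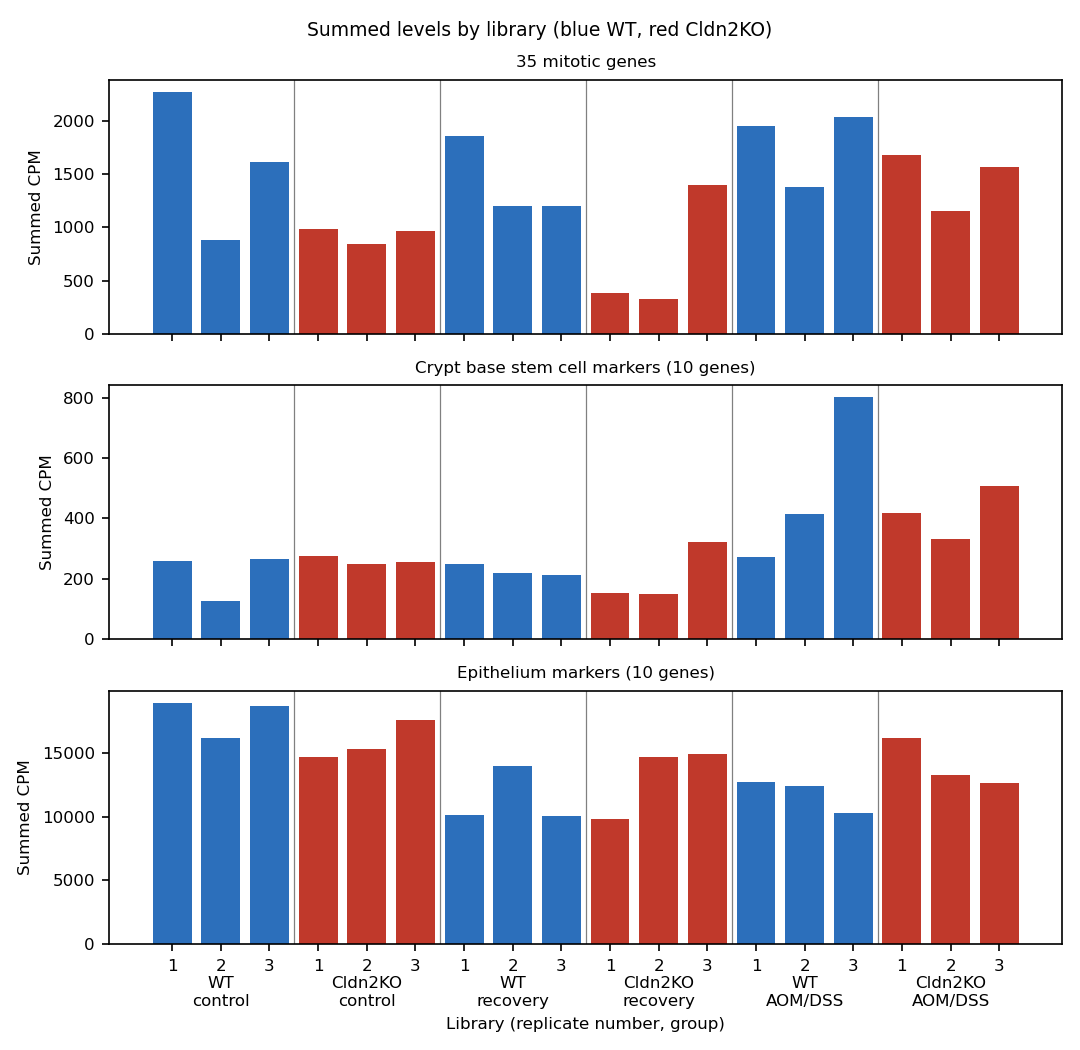
Summed CPM in each of 18 libraries of the 35 mitotic genes (top), 10 crypt base stem cell markers (middle) and 10 epithelium markers (bottom), with WT in blue and *Cldn2*KO in red. The mitotic sum is 386 and 327 CPM in *Cldn2*KO recovery replicates 1 and 2 and 1396 CPM in replicate 3, while the epithelium sum is 9832 CPM or more in every library.

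*Plk1*, a kinase that acts from mitotic entry to cytokinesis, was the exception. It stood at 30.6, 31.8 and 24.3 CPM in WT recovery against 30.2, 42.1 and 44.2 CPM in *Cldn2*KO recovery, with overlapping groups (log2 fold change 0.43, SE 0.247, edgeR adjusted p 0.359). In *Cldn2*KO recovery replicate 2 it stood at 146% of the WT recovery mean, while no other mitotic gene passed 52.9% there. It was also alone in having a higher fitted mean in *Cldn2*KO after AOM/DSS (43.9, 45.2 and 52.8 CPM against 41.1, 47.8 and 38.1 CPM in WT, log2 fold change 0.16, SE 0.246, edgeR adjusted p 0.955). Its count may hold reads of its neighbors, as strand was not stated for the counting. *Ern2* (chr7:122169893-122186207, minus strand), a stress sensor of goblet cells, has its 3′ end 20 bases beyond the end of *Plk1* (chr7:122159439-122169873, plus strand). The annotated bounds of *Ern2* and *Plk1* do not overlap. *Ern2* stood at 37.5, 35.9 and 38.2 CPM in WT recovery against 53.9, 68.1 and 59 CPM in *Cldn2*KO recovery. *Gm44985*, on the other strand inside *Plk1* and over 7.09% of its transcript, had 16.8, 64 and 18.6 CPM in WT recovery against 25.9, 33.2 and 24 CPM in *Cldn2*KO recovery. The part of either neighbor in the count of *Plk1* was not tested.

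Untreated mice gave the baseline. All 35 genes had lower fitted means in *Cldn2*KO than in WT controls, with a median log2 fold change of -0.77 (range -1.13 to -0.08) against -0.01 over all genes. *Mki67* stood at 411, 152 and 284 CPM in WT and at 193, 163 and 190 CPM in *Cldn2*KO controls. *Top2a* stood at 210, 81.4 and 165 CPM in WT and at 92.3, 78.5 and 97.4 CPM in *Cldn2*KO. The *Cldn2*KO libraries were close to one another, and WT replicate 2 lay among or below them in both genes while WT replicates 1 and 3 lay above.

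The same arrangement held for most of the list. *Birc5* stood at 71.8, 29.5 and 47.5 CPM in WT and at 27.1, 17.8 and 32.8 CPM in *Cldn2*KO controls (log2 fold change -0.94, SE 0.5, edgeR adjusted p 0.459). *Cdk1* stood at 72.8, 33.3 and 57.4 CPM in WT and at 33.6, 38.1 and 41.8 CPM in *Cldn2*KO, and *Ccnb1* at 62.1, 22.9 and 43.9 CPM in WT and at 24.7, 23.9 and 22.5 CPM in *Cldn2*KO. WT replicate 2 was below all *Cldn2*KO libraries in *Cdk1*, below replicates 1 and 2 in *Ccnb1* and below replicate 3 alone in *Birc5*. In *Cenpa*, by contrast, WT stood at 67, 31.1 and 48.3 CPM and *Cldn2*KO at 26.1, 20.6 and 21.9 CPM, with no overlap (log2 fold change -1.09, SE 0.481, edgeR adjusted p 0.346). *Ccna2*, *Racgap1*, *Ube2c* and *Cdca3* also did not overlap, which made 5 genes of 35 that were lower without overlap, against 10.7% of all genes. *Cdca3* had the largest change, with a log2 fold change of -1.13 (edgeR SE 0.458, adjusted p 0.295).

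For the regulators and motors the control groups overlapped. *Foxm1* stood at 22.6, 7.73 and 12.4 CPM in WT and 7.94, 5.6 and 10.9 CPM in *Cldn2*KO, and *Aurkb* at 30.7, 8.97 and 19.6 CPM in WT and 13.6, 9.32 and 13.5 CPM in *Cldn2*KO. *Cdc20* stood at 59.3, 19.1 and 33.9 CPM in WT and at 19.3, 11.9 and 20.9 CPM in *Cldn2*KO, and *Kif11* at 66.9, 28.1 and 55.3 CPM in WT and at 35.8, 36.3 and 30.8 CPM in *Cldn2*KO. WT replicate 1 was the highest of the 6 control libraries in each of them. *Mybl2* and *Spc25* had the smallest differences of the 35 between genotypes, with log2 fold changes of -0.15 (SE 0.494) and -0.08 (SE 0.305).

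Among controls edgeR called none of the 35 genes (1.17% of all genes) and 4 had an unadjusted p under 0.05 (13.1% of all genes). DESeq2 also called none (4.07% of all genes) with 6 unadjusted (14.2%), and limma-voom with sample weights called 24 (14.9% of all genes), so the number of calls depended on the test. Without WT control replicate 2, which lacked distal colon markers, the median log2 fold change was -1.09, edgeR made no call, and an unadjusted p under 0.05 was found for 19 of the 35 and for 9.45% of all genes. Without WT control replicate 1 the median was -0.43. Smooth muscle markers summed to between 8277 and 10718 CPM in *Cldn2*KO controls and between 4092 and 6106 CPM in WT controls, with 9 of 10 higher without overlap. T and NK cell markers summed to 2.77 to 12.1 CPM in *Cldn2*KO controls against 13.9 to 156 CPM in WT controls, with 7 of 11 lower without overlap, and 4 of 10 epithelium markers were also lower without overlap (sums of 14644 to 17549 against 16144 to 18921 CPM). The part of these differences in tissue makeup in the mitotic values was not tested.

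**Figure D5:**
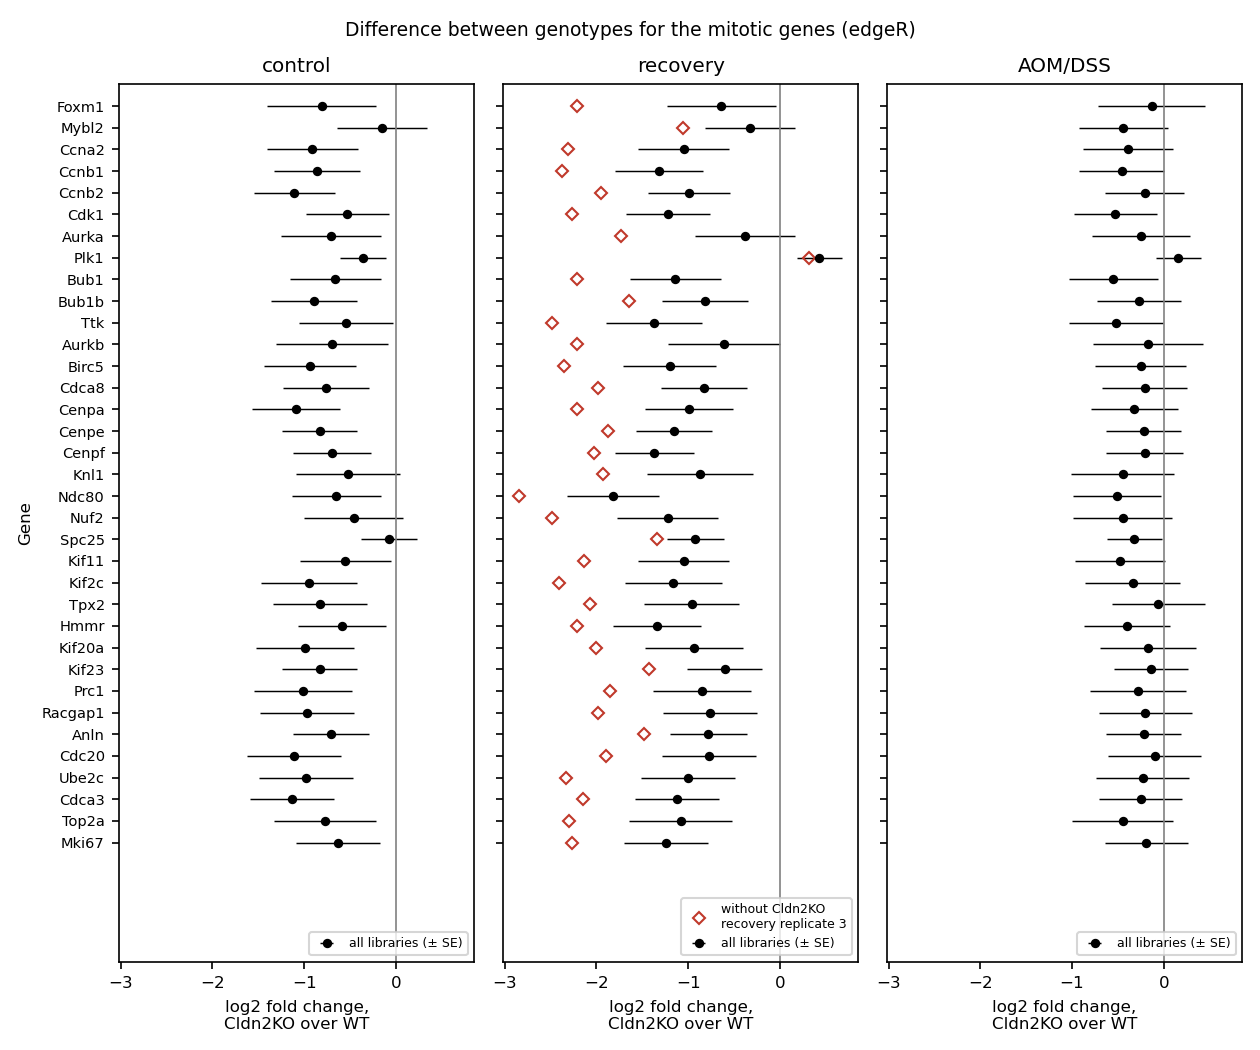
Log2 fold changes of *Cldn2*KO over WT for the 35 mitotic genes in control, recovery and AOM/DSS libraries, with the SE of the edgeR fit as lines. Open diamonds give the recovery values without *Cldn2*KO recovery replicate 3. Medians are -0.77, -0.99 and -0.25, and without that library the recovery median is -2.14.

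After AOM/DSS the differences between genotypes were small. In 34 of 35 genes the fitted mean was lower in *Cldn2*KO, with a median log2 fold change of -0.25 (range -0.55 to 0.16). All 35 overlapped between genotypes, while 4.92% of all genes were higher and 6.38% lower without overlap. The median was -0.10 with 29 lower without *Cldn2*KO AOM/DSS replicate 2, -0.45 without replicate 1, -0.42 without WT AOM/DSS replicate 2, -0.06 with 22 lower by limma-voom and -0.53 with 35 lower under scaling to the epithelium markers. *Mki67* stood at 337, 222 and 262 CPM in WT and at 268, 208 and 244 CPM in *Cldn2*KO (log2 fold change -0.19, SE 0.454, edgeR adjusted p 0.972). *Birc5* stood at 50.7, 34.1 and 46.6 CPM in WT and at 46.8, 28.1 and 35.8 CPM in *Cldn2*KO (log2 fold change -0.25, SE 0.495, edgeR adjusted p 0.968). In either gene 1 *Cldn2*KO library was below the WT range and the others lay within it. *Bub1*, a spindle checkpoint kinase, had the largest change with -0.55 (SE 0.488, edgeR adjusted p 0.914). edgeR, DESeq2 and limma-voom each called 0 of the 35 (0.0059% of all genes by edgeR), and none had an unadjusted p under 0.05 in the edgeR fit (5.6% of all genes). The SE ran from 0.246 (*Plk1*) to 0.603 (*Aurkb*), so differences of this size were not detectable with 3 libraries a group. B cell markers summed to 4.41 to 33.7 CPM in *Cldn2*KO AOM/DSS against 52.8 to 76.9 CPM in WT, with 7 of 9 lower without overlap, and 3 of 10 epithelium markers were higher without overlap.

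Treatment was then compared within genotype. In WT mice, recovery and control libraries overlapped in all 35 genes (16.8% of all genes were higher and 20.9% lower without overlap), with a median log2 fold change of -0.20 and 25 genes lower. edgeR called none while 22.2% of all genes were called, and none had an unadjusted p under 0.05 (36.3% of all genes). DESeq2 also called none (27.2% of all genes), and limma-voom called 5, all lower in recovery (47.7% of all genes). *Cdk1* stood at 72.8, 33.3 and 57.4 CPM in WT controls and 75.1, 69 and 51.8 CPM in WT recovery, a spread that crosses in both directions. The direction for the list was not stable, since without WT control replicate 1 the median was 0.18, without replicate 2 it was -0.52 and under scaling to the epithelium markers it was 0.55 with 2 genes lower. Smooth muscle markers summed to 862 to 2280 CPM in WT recovery against 4092 to 6106 CPM in WT controls, and epithelium markers to 10054 to 13967 CPM against 16144 to 18921 CPM. Their part in the mitotic values was not tested.

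In *Cldn2*KO mice, 33 of 35 genes had a lower fitted mean in recovery than in controls (median log2 fold change -0.35), and edgeR called none (19.4% of all genes) with 1 unadjusted p under 0.05, that of *Plk1* (32.5% of all genes). DESeq2 called *Plk1* alone (23.9% of all genes), and limma-voom called 18 genes lower and *Plk1* higher (33.8% of all genes). *Plk1* stood at 27.9, 18.1 and 25.6 CPM in controls and at 30.2, 42.1 and 44.2 CPM in recovery, all above the controls. Its edgeR adjusted p of 0.0585 (log2 fold change 0.70, SE 0.248) missed the threshold, and it was 0.0428 without *Cldn2*KO recovery replicate 1, where 14.9% of all genes were called. Without *Cldn2*KO recovery replicate 3, edgeR called 27 of the 35 lower in recovery (median -1.48), against 16.3% of all genes called in either direction. Without replicate 1 or 2 of that group the medians were -0.08 and -0.05, with 20 and 19 genes lower, and a covariate for the distal marker *Hoxb13* turned the median to 0.74 with 0 lower. From control to recovery in *Cldn2*KO, smooth muscle markers went from 8277 to 10718 CPM down to 986 to 1646 CPM, fibroblast markers from 471 to 757 down to 148 to 202 CPM, macrophage markers from 93.4 to 161 down to 51.6 to 59.3 CPM and T and NK cell markers from 2.77 to 12.1 up to 29.1 to 42.7 CPM. Their part in the mitotic values was not tested.

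AOM/DSS colons of *Cldn2*KO mice had higher fitted means than *Cldn2*KO controls for all 35 genes, with a median log2 fold change of 0.68 (range 0.07 to 1.38). In 24 genes the groups did not overlap, against 15% of all genes that were higher without overlap. *Prc1*, which bundles microtubules of the central spindle, stood at 15.2, 12.4 and 11.2 CPM in controls and 33.3, 22.7 and 34.9 CPM after AOM/DSS (log2 fold change 1.23, SE 0.536, edgeR adjusted p 0.296). *Kif20a*, a motor of cytokinesis, stood at 9.66, 5.94 and 7.64 CPM in controls and 21.8, 15.6 and 23.2 CPM after AOM/DSS (log2 fold change 1.38, SE 0.534, edgeR adjusted p 0.241), the largest change of the list. *Top2a* stood at 92.3, 78.5 and 97.4 CPM in controls and 210, 117 and 194 CPM after AOM/DSS. In these 3 genes every AOM/DSS library exceeded every control. edgeR called none of the 35 (0.195% of all genes), with 4 at an unadjusted p under 0.05 (15.2%), DESeq2 called 1 (*Plk1*, against 3.56% of all genes) and limma-voom 7 (18.1%). An edgeR fit to only the groups compared called 12 (5.87% of all genes), led by *Prc1*, *Kif20a* and *Plk1*.

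In WT mice the same contrast had a median of 0.19, with 26 genes higher and 9 lower, and the groups overlapped in all 35 (14.9% of all genes were higher and 17.3% lower without overlap). edgeR called none (10.4% of all genes) and 1 gene, *Mybl2*, had an unadjusted p under 0.05 (29.9% of all genes). *Mybl2* stood at 4.99, 2.16 and 4.33 CPM in WT controls and 4.74, 5.82 and 13.3 CPM after AOM/DSS. DESeq2 and limma-voom called none (17.9% and 15% of all genes). The direction for the list was not stable, since without WT control replicate 1 the median was 0.55 with 0 genes lower and without WT control replicate 2 it was -0.13 with 23 lower, and limma-voom gave -0.23 with 28 lower. The interaction of genotype with AOM/DSS had a median of 0.52 and 32 genes with a positive value, and edgeR called none (0.0118% of all genes) with 0 unadjusted p under 0.05 (8.44%), as did DESeq2. Limma-voom called none, with 20 unadjusted (16.8% of all genes). The median was 0.15 without WT control replicate 1, 0.82 without replicate 2 and 0.06, with 14 genes negative, under scaling to the epithelium markers. The interaction with recovery had a median of -0.14 with 22 genes negative, and its direction depended on single libraries and on the method. It was 0.12 with 14 negative without WT control replicate 2. Without *Cldn2*KO recovery replicate 3 it was -1.33 with 34 negative and none called by edgeR (lowest adjusted p 0.0959, *Cdk1*). It was -0.68 with 34 negative by limma-voom and -0.69 with 34 negative under scaling to the epithelium markers. For it edgeR called none (0.13% of all genes) and 1 gene had an unadjusted p under 0.05 (18.5% of all genes), *Plk1* (log2 value 0.79, SE 0.35, edgeR adjusted p 0.245), which limma-voom called (10.4% of all genes). A difference between genotypes in the response to either treatment was therefore not shown by edgeR. The summed crypt base stem cell markers were higher after AOM/DSS as well. They stood at 330 to 508 CPM in *Cldn2*KO and 273 to 801 CPM in WT, against 250 to 275 and 126 to 265 CPM in controls. *Lgr5* alone did not rise in every library. It stood at 2.71, 20.4 and 74.3 CPM in WT AOM/DSS against 6.53, 3.54 and 7.9 CPM in WT controls. In *Cldn2*KO it stood at 20.6, 3.8 and 33 CPM after AOM/DSS against 6.9, 5.94 and 7.37 CPM in controls. Differentiated colonocyte markers were lower, with sums of 2974 to 4626 CPM in *Cldn2*KO and 2787 to 4425 CPM in WT, against 9245 to 11962 and 8975 to 14901 CPM in the controls. Smooth muscle markers were lower too, at 2581 to 6325 CPM in *Cldn2*KO and 627 to 3198 CPM in WT. The part of these cell types in the mitotic values was not tested.

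Comparing AOM/DSS with recovery in *Cldn2*KO mice gave the only calls among the 35 in the edgeR fit of all libraries with TMM scaling. *Cenpf*, *Cenpe* and *Kif20a* were higher after AOM/DSS, 3 genes of 35 against 17.8% of all genes called in either direction. *Cenpf* stood at 15.8, 7.14 and 31.4 CPM in recovery, against 60.1, 47.9 and 57.4 CPM after AOM/DSS (log2 fold change 1.61, SE 0.433, edgeR adjusted p 0.0202). *Cenpe* stood at 12.5, 7.05 and 28.5 CPM in recovery, against 48.1, 32 and 47.5 CPM after AOM/DSS (log2 fold change 1.41, SE 0.415, edgeR adjusted p 0.0304). *Kif20a* stood at 3.32, 2.92 and 13.2 CPM in recovery, against 21.8, 15.6 and 23.2 CPM after AOM/DSS (log2 fold change 1.64, SE 0.539, edgeR adjusted p 0.0473). In all 3 the highest recovery library, replicate 3, was still below the lowest AOM/DSS library. DESeq2 called 10 genes (22.9% of all genes) and limma-voom 32 (28.5%). All 35 had a higher fitted mean (median log2 fold change 1.04), and 6 were higher without overlap, against 19% of all genes. Part of the transcript of *Kif20a* lies opposite *Cdc23* (33.17% of its length), so its value is uncertain. Without *Cldn2*KO recovery replicate 3, 32 of the 35 were called (median 2.16), against 16.4% of all genes, and without replicate 1 or 2 none was. All 3 calls were also lost without *Cldn2*KO AOM/DSS replicate 1 or 3, and that of *Kif20a* was lost without replicate 2 of that group, with *Xist* as a covariate and under scaling to the epithelium markers. The recovery libraries lacked distal colon markers and the AOM/DSS libraries had them. Other markers moved with this contrast from recovery to AOM/DSS in *Cldn2*KO: differentiated colonocytes from 8567 to 9557 CPM down to 2974 to 4626 CPM, macrophages from 51.6 to 59.3 up to 163 to 179 CPM, smooth muscle from 986 to 1646 up to 2581 to 6325 CPM and crypt base stem cells from 149 to 322 up to 330 to 508 CPM. Their part in the mitotic values was not tested. The same contrast in WT mice had a median of 0.41 with 33 genes higher, no edgeR call (24.3% of all genes) and 1 unadjusted p under 0.05, that of *Plk1* (37.9% of all genes). DESeq2 called none (29.1% of all genes) and limma-voom called *Plk1* (35.7% of all genes).

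Reads were counted in a way that may not separate strands, and 5 other genes of the list overlap a gene on the opposite strand, so they carry the same uncertainty as *Kif20a* and *Plk1*. The overlap covers 22.77% of the transcript in *Ube2c* (*Tnnc2*), 12.49% in *Ccna2* (*Exosc9*), 11.08% in *Prc1* (*Rccd1*), 4.48% in *Cdca8* and 2.84% in *Cdc20* (*Elovl1*). *Ccnb1* and *Ccnb2* have annotated pseudogenes that could take or give reads.

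The rest of the cell cycle was read from lists named apart from these 35. Of 76 other mitotic genes, all tested, 74 had a lower fitted mean in *Cldn2*KO recovery than in WT recovery (median log2 fold change -0.91), 73 in controls (-0.59) and 72 after AOM/DSS (-0.33), with none called by edgeR in any of the 3. At an unadjusted p under 0.05 there were 33, 6 and 0 of them, against 19.9%, 13.1% and 5.6% of all genes. DESeq2 called 16, 0 and 0 (9.69% and 4.07% of all genes in the first pair) and limma-voom 55, 35 and 0 (11.2% and 14.9%). The mean log2 CPM of this list was 2.28, 1.97 and 3.92 in *Cldn2*KO recovery against 4.24, 3.72 and 3.71 in WT recovery. Replicate 3 of *Cldn2*KO recovery thus lay within the WT range. Among controls the mean was 4.47, 3.24 and 4.04 in WT against 3.53, 3.31 and 3.46 in *Cldn2*KO. There WT replicate 2 was below all *Cldn2*KO libraries. Comparing AOM/DSS with recovery in *Cldn2*KO mice, 10 of the 76 rose and 1 fell, where 17.8% of all genes were called. Of those that rose, the smallest adjusted p were those of *Psrc1* (log2 fold change 2.33, SE 0.479, edgeR adjusted p 0.00519), *Ckap2* (1.54, SE 0.356, edgeR adjusted p 0.00929) and *Pimreg* (2.61, SE 0.66, edgeR adjusted p 0.0146), followed by *Kif18a* and *Aspm* (edgeR adjusted p 0.026 and 0.0261). The gene that fell was the kinetochore gene *Zwint*, which ran against the list: it stood at 56.5 to 79.7 CPM in WT controls, 105 to 132 CPM in WT recovery and 57.2 to 72.4 CPM after AOM/DSS in WT, and in *Cldn2*KO at 54.5 to 71.9, 92.3 to 134 and 50 to 57.6 CPM. Its rise from control to recovery passed the test in WT (log2 fold change 0.91, edgeR SE 0.173, adjusted p 0.00276) and in *Cldn2*KO (0.88, SE 0.173, edgeR adjusted p 0.00305), as did the fall of the spindle gene *Fam83d* (-1.13 and -1.58, edgeR adjusted p 0.0371 and 0.00816). *Psrc1* also fell from control to recovery in *Cldn2*KO (-1.49, SE 0.476, edgeR adjusted p 0.0392).

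Of 30 DNA replication genes, 22 had a higher fitted mean in *Cldn2*KO than in WT controls (median log2 fold change 0.14). None was called by edgeR or DESeq2 and none had an unadjusted p under 0.05. The mean log2 CPM of this list was 4.14, 3.31 and 4.06 in WT controls and 3.98, 3.85 and 4.20 in *Cldn2*KO controls. WT replicate 2, which lacked distal colon markers, was the lowest, and the other WT controls lay within the *Cldn2*KO range. In recovery 29 of the 30 had a lower fitted mean in *Cldn2*KO (median -0.68), with 16 at an unadjusted p under 0.05 (19.9% of all genes). DESeq2 called 6 (9.69% of all genes) and limma-voom 18 (11.2%). The list's mean log2 CPM was 2.91, 3.07 and 4.23 in *Cldn2*KO recovery against 4.59, 4.04 and 4.06 in WT recovery. Replicate 3 of *Cldn2*KO recovery thus lay within the WT range here too. *Rfc4*, a part of the clamp loader, stood at 31.9, 29.3 and 24 CPM in WT recovery against 8.94, 8.03 and 17.7 CPM in *Cldn2*KO recovery, without overlap. It was called lower (log2 fold change -1.30, SE 0.282, edgeR adjusted p 0.0418), although leaving out any 1 recovery library other than *Cldn2*KO replicate 3 took the edgeR adjusted p over 0.05 (0.0574 to 0.247). The call was also lost with *Xist* as a covariate, without a filter and in a fit to only the groups compared (edgeR adjusted p 0.0683, 0.0503 and 0.225). From control to recovery, 28 of the 30 had a higher fitted mean in WT (median 0.35) and *Rfc4*, *Orc6*, *Pcna* and *Orc1* rose (edgeR adjusted p 0.0178, 0.0225, 0.0249 and 0.0377), 4 of 30 where 22.2% of all genes were called. None of the 4 was called without WT control replicate 2 (edgeR adjusted p 0.0561 to 0.107). The list's mean log2 CPM was 4.14 and 4.06 in WT controls 1 and 3, within the WT recovery range, and 3.31 in replicate 2. In *Cldn2*KO 27 of the 30 had a lower fitted mean in recovery (median -0.56). The primase gene *Prim1* and the clamp loader gene *Rfc3* fell (edgeR adjusted p 0.0224 and 0.0403), 2 of 30 where 19.4% of all genes were called. In *Cldn2*KO recovery replicate 3 the list's mean of 4.23 was above that of every *Cldn2*KO control. The interaction was negative for 29 of the 30 (median -0.94), with none called by edgeR, 10 at an unadjusted p under 0.05 (18.5% of all genes), 3 called by DESeq2 (6.44%) and 9 by limma-voom (10.4%). After AOM/DSS all 30 had a lower fitted mean in *Cldn2*KO (median -0.40), with none called by edgeR or DESeq2 and 2 at an unadjusted p under 0.05.

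Among 34 genes of G1 phase, its inhibitors and the pocket proteins, none was called between genotypes by edgeR, with medians of -0.07 in controls, -0.06 in recovery and -0.12 after AOM/DSS. There were 7, 5 and 2 of them at an unadjusted p under 0.05 (13.1%, 19.9% and 5.6% of all genes), DESeq2 called 0, 1 and 0 (4.07%, 9.69% and 0.0251% of all genes) and limma-voom 7, 6 and 0 (14.9%, 11.2% and 0.0059%). *Cdkn1a*, which encodes the cell cycle inhibitor p21, stood at 306, 261 and 271 CPM in WT controls, 114, 118 and 142 CPM in WT recovery and 175, 280 and 206 CPM in *Cldn2*KO recovery. The recovery groups did not overlap, and the difference of 0.82 on the log2 scale (SE 0.209, edgeR adjusted p 0.0633) missed the threshold. Its fall from control to recovery in WT passed it (log2 fold change -1.16, SE 0.21, edgeR adjusted p 0.00217), whereas in *Cldn2*KO the change was 0.02 (SE 0.207), and the difference between these changes was not called (interaction 1.18, SE 0.294, edgeR adjusted p 0.0809). In *Cldn2*KO recovery *Cdkn1a* did not separate replicate 3 from the others as the mitotic genes did.

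*E2f1*, a factor that switches on S phase genes, did separate it, with 1.02, 1.76 and 8.22 CPM in *Cldn2*KO recovery and 8.87, 6.81 and 4.55 CPM in the WT group (log2 fold change -0.88, SE 0.553, edgeR adjusted p 0.406). *Ccnd1*, the cyclin of G1 phase, had 14.2, 18.8 and 46.4 CPM in *Cldn2*KO recovery against 55.3, 14.1 and 31.6 CPM in WT recovery, and *Rbl2*, a pocket protein of the DREAM complex, had 57.5, 30.4 and 35.3 CPM against 37.3, 18.2 and 37.1 CPM. Neither was called by edgeR between genotypes, and their groups overlapped.

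Several G1 genes passed the test between treatments. From control to recovery *Cdk6*, *E2f5* and *Cdkn1c* rose in WT (log2 fold changes 1.31, 1.26 and 1.86, edgeR adjusted p 0.0011, 0.0018 and 0.0393) and in *Cldn2*KO (0.61, 0.97 and 2.21, edgeR adjusted p 0.0464, 0.00663 and 0.0205). *Cdkn2b* rose in WT (0.66, edgeR adjusted p 0.0413) and *Lin54*, a part of the DREAM complex, in *Cldn2*KO (0.60, edgeR adjusted p 0.0471). *Ccnd2* fell in *Cldn2*KO (-1.40, SE 0.264, edgeR adjusted p 0.00238), and the anaphase-promoting complex activator *Fzr1* fell in WT (-0.59, edgeR adjusted p 0.0232). The calls made up 6 of 34 genes in WT and 5 of 34 in *Cldn2*KO, against the 22.2% and 19.4% of all genes called in these contrasts.

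The G1 list had 5 calls of 34 from control to AOM/DSS in WT, 5 from recovery to AOM/DSS in WT and 6 in *Cldn2*KO, where 10.4%, 24.3% and 17.8% of all genes were called. From control to AOM/DSS in WT, *Cdkn1a*, *Fzr1* and *Btg1* fell (log2 fold changes -1.18, -0.68 and -0.75, edgeR adjusted p 0.00824, 0.0283 and 0.0295) and *Cdk6* rose (0.74, edgeR adjusted p 0.0356). From recovery to AOM/DSS, *Ccnd2* rose in WT and *Cldn2*KO (1.19 and 1.49, edgeR adjusted p 0.00602 and 0.00234), and *E2f5*, *Cdkn2b* and *Rb1* fell in WT (-1.16, -1.10 and -0.58) and in *Cldn2*KO (-1.12, -0.68 and -0.65), each with an edgeR adjusted p of 0.0437 at most. *Btg1* fell in *Cldn2*KO (-0.60, edgeR adjusted p 0.0422). *Cdkn2a*, the p16 and p19ARF locus, was called higher after AOM/DSS against WT control and against recovery in either genotype, on few reads: 1, 13 and 34 reads in WT AOM/DSS and 12, 2 and 20 reads in *Cldn2*KO AOM/DSS, against at most 2 reads in any library of the other groups.

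The calls in these lists were also read with each library of the groups compared left out in turn. Of 17 edgeR calls in the other mitotic genes 7 held in every such fit, those of *Zwint* in 4 contrasts, of *Psrc1* and *Ckap2* from recovery to AOM/DSS in *Cldn2*KO and of *Fam83d* from control to recovery in *Cldn2*KO. Of 8 calls in replication genes 0 held. Of 27 in the G1 list 11 held, those of *E2f5* and *Ccnd2* in the contrasts named, *Cdk6* and *Cdkn1a* from control to recovery in WT, *Cdkn1a* from control to AOM/DSS in WT and *Cdkn2b* from recovery to AOM/DSS in WT. Without WT control replicate 2, the 2 calls in other mitotic genes and 5 of the 6 in the G1 list held from control to recovery in WT, and 1 of the 5 G1 calls, *Cdkn1a*, from control to AOM/DSS in WT.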

How the data were processed

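The authors deposited 1 table of raw read counts per gene with 36 columns, 2 sequencing lanes for each of the 18 libraries. All columns were mapped to a library by name. The study's methods name TopHat2 for alignment, whereas the submitters' processing notes name HISAT2, Subread, featureCounts and GRCm38, and tool versions and strandedness are not given in the sources used here. Replicate numbers come from the titles for controls and otherwise only name a library. The labels do not say that libraries of a group are separate animals, so p-values measure the spread between these libraries.

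Lane pairs of a library gave a chi-square of 1.08 to 1.17 for each degree of freedom, against at least 11.0 between replicates, and were summed. The 505 genes without a symbol were kept under their identifiers. Of 47729 genes, 16937 passed the expression filter of edgeR (filterByExpr) and 30792 did not, and library sizes were taken over the genes that passed. Tests used R 4.3.3 and edgeR 4.0.16 (TMM scaling, quasi-likelihood F test, 1 model of all 6 groups, biological coefficient of variation 0.315) with Benjamini-Hochberg adjustment over all genes tested and a threshold of 0.05. Fold changes are log2. Alternatives were DESeq2 1.42.0, limma 3.58.1 (voom with sample weights), other scalings and filters, covariates for *Hoxb13* and *Xist*, a replicate block and leaving out each library. The test script was tried on simulated counts, with genes drawn independently at a common dispersion and some changed in *Cldn2*KO recovery. Against WT recovery it called 0 of 79 genes changed 1.5-fold, 7 of 70 changed 2-fold and 42 of 51 changed 4-fold. Figures used Python 3.11.15. Genes named with their levels by library, in the groups of the comparison at hand, were *Mki67*, *Top2a*, *Birc5*, *Foxm1*, *Mybl2*, *Ccnb1*, *Cdk1*, *Plk1*, *Aurkb*, *Cdc20*, *Cenpa* and *Kif11*, any of the 35 called between genotypes or moving against the list, and *Cdkn1a*, *E2f1*, *Ccnd1* and *Rbl2*. Of the other mitotic and G1 lists, up to 5 called genes were named per contrast and direction. Levels of *Ndc80*, *Ube2c*, *Prc1*, *Kif20a*, *Cenpe*, *Cenpf*, *Rfc4*, *Lgr5*, *Ern2* and *Gm44985* were added after their values were seen. The members and the gene lists were chosen with earlier results of these data known.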

Additional observations from a re-analysis of the deposited data

How the results depend on the processing

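With all libraries in the fit, the number of mitotic genes called depended on the method. Limma-voom with sample weights called 24 in *Cldn2*KO against WT controls and 28 in recovery (median log2 fold change -1.73), 5 and 19 from control to recovery in WT and *Cldn2*KO (median -1.11 in *Cldn2*KO), 7 from control to AOM/DSS in *Cldn2*KO, 1 and 32 from recovery to AOM/DSS in WT and *Cldn2*KO (median 1.80 in *Cldn2*KO) and 1 in the interaction with recovery. DESeq2 called 5 in *Cldn2*KO against WT recovery, 1 each from control to recovery and to AOM/DSS in *Cldn2*KO, and 10 from recovery to AOM/DSS in *Cldn2*KO. For that last contrast upper quartile scaling called 7 (18% of all genes), a filter at 1 CPM in 3 libraries 5 (18.9%), and no filter or a fit to only the groups compared 0 (7.59% and 18.7%). The fit to only the groups compared called 1 from control to recovery (24.4% of all genes) and 12 from control to AOM/DSS in *Cldn2*KO.

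Under scaling to epithelium markers the median of all genes, within 0.04 of 0 under TMM in these comparisons, was 0.18 in control, -0.18 in recovery and -0.24 in AOM/DSS for the genotype comparisons, 0.64 and 0.31 from control to recovery and 0.61 and 0.19 from control to AOM/DSS in WT and *Cldn2*KO. It called 1 gene between genotypes in recovery (0.827% of all genes), 1 each from control to recovery in WT (median 0.55) and *Cldn2*KO (39.8% and 17.1% of all genes), and 3 from control to AOM/DSS in WT (median 0.86, 34.4% of all genes). Between genotypes, *Mybl2* (0.05) and *Spc25* in controls and *Plk1* after AOM/DSS (-0.07) changed sign. A covariate for *Hoxb13*, which is nearly confounded with recovery, turned the medians from control to recovery to 0.65 in WT and 0.74 in *Cldn2*KO, with 1 call in *Cldn2*KO (0.785% of all genes), and gave 1 call from control to AOM/DSS in *Cldn2*KO (1.04%). Limma-voom changed the sign of 12 genes between genotypes after AOM/DSS (0.01 to 0.13), among them *Foxm1* (0.13), *Mybl2* (0.03), *Aurkb* (0.13) and *Cdc20* (0.10). The causes were not tested.

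Leaving out 1 library at a time gave 0 to 29 calls between genotypes in recovery (medians -2.14 to -0.65), 0 to 27 from control to recovery in *Cldn2*KO (-1.48 to -0.05), 0 to 32 from recovery to AOM/DSS in *Cldn2*KO (0.68 to 2.16), and medians of -0.13 to 0.55 from control to AOM/DSS in WT, -1.33 to 0.22 for the interaction with recovery and 0.15 to 0.82 for that with AOM/DSS. The high counts all came from leaving out *Cldn2*KO recovery replicate 3. Between genotypes, signs changed for up to 5 genes in any 1 fit, among them *Mybl2* in controls (-0.45 to 0.09), *Mybl2* in recovery (-1.06 to 0.00) and, after AOM/DSS, *Foxm1* (-0.31 to 0.02), *Mybl2* (-0.70 to 0.15), *Aurkb* (-0.34 to 0.05) and *Cdc20* (-0.25 to 0.08). With a replicate block, possible for controls alone since the other labels carry no number, 0 genes were called and the median was -0.70. Same-numbered controls correlated weakly (r 0.157, 0.00234 and 0.0794), so they share only a number. With 3 libraries a group the SE for the 35 genes limited what could be detected.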
